A study of Drosophila melanogaster with 10 samples.

Results

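The 10 glycolysis genes described here, of 17735 genes in the count tables, were chosen by FlyBase symbol as the enzymes from phosphofructokinase to pyruvate kinase plus lactate dehydrogenase: Pfk, Ald1, Tpi, Gapdh1, Gapdh2, Pgk, Pglym78, Eno, Pyk and Ldh. They were measured by RNA sequencing in whole third-instar larvae of Drosophila melanogaster in 5 genotypes with 2 libraries each. The triple mutant carried dCTCFdeltaCP, SuHwdelta114 and PitadeltaCP1 together. The CTCF Pita mutant carried dCTCFdeltaCP and PitadeltaCP1, the CTCF Su(Hw) mutant carried dCTCFdeltaCP and SuHwdelta114, and the CTCF mutant carried dCTCFdeltaCP alone. Wild type is labelled dCTCFwt, and the strain given for all 10 libraries is y1w1118. CTCF, Su(Hw) and Pita are zinc-finger architectural proteins, and the alleles change the parts of them that contact CP190, a partner found at insulators and promoters. Every mutant carried the CTCF allele, so the Su(Hw) and Pita alleles were measured on that background. RNA came from whole animals, and sex, age in hours and the number of larvae per library are not given in the labels.

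Glycolysis splits glucose into pyruvate and yields ATP and NADH. Phosphofructokinase commits the sugar to the pathway, aldolase and triose phosphate isomerase make and interconvert the triose phosphates, and the later enzymes recover energy on the way to pyruvate. Growing Drosophila larvae use the pathway heavily and pass much of the pyruvate to lactate through Ldh, a programme known to depend on the nuclear receptor ERR, while larval muscle is among its most active sites.

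Each library held 18856997 to 24391317 reads, of which 5670793 to 8220126 were assigned to genes. All 10 genes passed the filter on low counts, with 722 to 28967 reads per gene and library. Mitochondrially encoded transcripts took 8.67% to 34.6% of the assigned reads, with the highest share in a CTCF mutant library, and the TMM scaling factors ran from 0.553 to 1.35. Both CTCF Su(Hw) libraries differed from each other by little more than counting error, with a chi-square per degree of freedom of 1.78 against 14.3 to 41.4 in the other genotypes, so they may hold 1 sample. Counts of the 10 genes that rest on them, and the main pathway results of that mutant, are given below also with their reads summed as 1 library. The labels do not say that libraries of a genotype came from separate cultures, so p-values measure the spread between libraries, which may be technical.

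The unit of level is CPM, the reads of a gene relative to the TMM-scaled total of its library, and levels of different genes are set beside each other as RPKM, which divides by exon length too. In wild type the genes lay in the upper part of the expressed range, between rank 45 and rank 725 of 10499 genes. The RPKM order in wild type began with the glyceraldehyde-3-phosphate dehydrogenase genes, Gapdh2 at 2576 ± 243 and Gapdh1 at 2465 ± 210 (SD, n = 2), whose libraries overlapped. Eno followed at 1206 ± 94.9 and Tpi at 1151 ± 153, which overlapped as well. Pyk at 869 ± 28.3 stood above Pglym78 at 735 ± 68.2 and Ald1 at 701 ± 19.1, and these last genes overlapped. The lowest were Ldh at 394 ± 25.8, Pgk at 307 ± 23.8 and Pfk at 101 ± 0.759, with no overlap between them. In the triple mutant Pfk was again the lowest, at 33.4 ± 0.364 RPKM, and the Gapdh genes the highest, at 1026 ± 201 for Gapdh1 and 876 ± 119 for Gapdh2.

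Across the genotypes the 10 genes moved largely together. With TMM scaling they were lowest in the triple and CTCF Pita mutants, intermediate in CTCF Su(Hw) mutants and highest in CTCF mutants and wild type, while on library totals the CTCF mutant was not above wild type. As a share of all assigned reads, which is the scale of library totals and counts mitochondrial reads too, they took 0.869% and 0.735% in triple mutants, 1.02% and 1.06% in CTCF Pita mutants, 1.61% and 1.57% in CTCF Su(Hw) mutants, 1.40% and 1.79% in CTCF mutants, and 1.96% and 1.94% in wild type. Both libraries of every mutant were below both wild-type libraries by this measure, and the CTCF and CTCF Su(Hw) mutants overlapped. Mitochondrial transcripts took 34.6% and 24.2% of the assigned reads in CTCF mutants, against 14.2% and 14.6% in wild type. With those reads left out of the total, the CTCF mutant and wild-type libraries would overlap. In whole larvae, fewer cells that express these genes and less RNA per cell cannot be told apart.

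The enzymes of the upper pathway begin with Pfk (FBgn0003071, chromosome 2R, 10109740 to 10117457), which adds the second phosphate to the sugar. Pfk stood at 147 and 145 CPM in triple mutants, 179 and 170.2 in CTCF Pita mutants, 382 and 380.4 in CTCF Su(Hw) mutants, 576 and 667 in CTCF mutants, and 439 and 443 in wild type. No genotypes overlapped, and the CTCF mutant was the highest. Ald1 (FBgn0000064, 3R, 26254069 to 26261591) encodes the aldolase that cleaves the hexose into trioses. It had 1098 and 921 CPM in triple mutants, 1435 and 1305 in CTCF Pita mutants, 2197 and 2232 in CTCF Su(Hw) mutants, 2074 and 2768 in CTCF mutants, and 2720.4 and 2618 in wild type. Here the CTCF mutant libraries lay on both sides of the CTCF Su(Hw) and wild-type libraries. Antisense gene asRNA:CR44321 covers 8.87% of its exon length, and the reads were counted without strand.

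Tpi (FBgn0086355, 3R, 30132981 to 30134599) encodes triose phosphate isomerase, which turns dihydroxyacetone phosphate into the triose that continues down the pathway. Tpi had 674 and 793 CPM in triple mutants, 542 and 565 in CTCF Pita mutants, 868 and 858 in CTCF Su(Hw) mutants, 2880.1 and 2460 in CTCF mutants, and 1962 and 1624 in wild type. Tpi was lowest in CTCF Pita mutants rather than in triple mutants, and no genotypes overlapped.

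The middle of the pathway holds the energy-yielding steps on triose phosphates, and the Gapdh enzymes oxidise the triose phosphate and make NADH. Gapdh1 (FBgn0001091, 2R, 7791901 to 7793380) had 1309 and 1729 CPM in triple mutants, 1371 and 1416 in CTCF Pita mutants, 1783 and 1759 in CTCF Su(Hw) mutants, 5029 and 4821 in CTCF mutants, and 3868 and 3427 in wild type. The triple and CTCF Pita mutants overlapped. Gapdh2 (FBgn0001092, X, 15868145 to 15869661) had 1144 and 1386 CPM in triple mutants, 1358 and 1172 in CTCF Pita mutants, 2322 and 2292 in CTCF Su(Hw) mutants, 4135 and 4093 in CTCF mutants, and 3965 and 3470 in wild type. It too overlapped only between the triple and CTCF Pita mutants. The Gapdh genes are similar copies and reads that mapped to several places were not counted, so the level of each is uncertain.

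Pgk (FBgn0250906, 2L, 2746880 to 2753068), phosphoglycerate kinase, makes the first ATP of the pathway. It had 245 and 246 CPM in triple mutants, 229 and 235 in CTCF Pita mutants, 400.4 and 382 in CTCF Su(Hw) mutants, 811 and 755 in CTCF mutants, and 683 and 612 in wild type. Its triple mutant libraries lay just above those of the CTCF Pita mutant, and no genotypes overlapped. Pglym78 (FBgn0014869, 3R, 29148248 to 29149901), phosphoglycerate mutase, moves the phosphate within the molecule and had 245 and 323 CPM in triple mutants, 325 and 305 in CTCF Pita mutants, 471 and 456 in CTCF Su(Hw) mutants, 973 and 1042 in CTCF mutants, and 890 and 780.3 in wild type. Only the triple and CTCF Pita mutants overlapped. Short stretches of other genes lie over the exons of Pgk (3.08%, Cwc25) and Pglym78 (0.528%, eIF2D).

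The end of the pathway makes pyruvate and lactate. Eno (FBgn0000579, 2L, 1724768 to 1729636), enolase, makes phosphoenolpyruvate and had 1611 and 1800.5 CPM in triple mutants, 1489 and 1551 in CTCF Pita mutants, 2198 and 2134 in CTCF Su(Hw) mutants, 6004 and 5914 in CTCF mutants, and 4732 and 4233 in wild type. No genotypes overlapped, although 9.74% of its exon length is shared with Rrp40 on the other strand. Pyk (FBgn0267385, 3R, 22367536 to 22372746), pyruvate kinase, turns phosphoenolpyruvate into pyruvate with a gain of ATP and had 698 and 849 CPM in triple mutants, 823 and 817 in CTCF Pita mutants, 1267 and 1242 in CTCF Su(Hw) mutants, 1949 and 2169 in CTCF mutants, and 1994 and 1905 in wild type. The CTCF mutant and wild type overlapped, as did the triple and CTCF Pita mutants. Ldh (FBgn0001258, 3L, 6259105 to 6262694), which reduces pyruvate to lactate and restores NAD+, had 237 and 220.3 CPM in triple mutants, 382 and 303 in CTCF Pita mutants, 400.3 and 403 in CTCF Su(Hw) mutants, 862 and 945 in CTCF mutants, and 800 and 729 in wild type. Ldh was lowest in triple mutants, and no genotypes overlapped. The coordinates are those of the Ensembl annotation of the BDGP6 assembly (dm6).

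**Figure D1:**
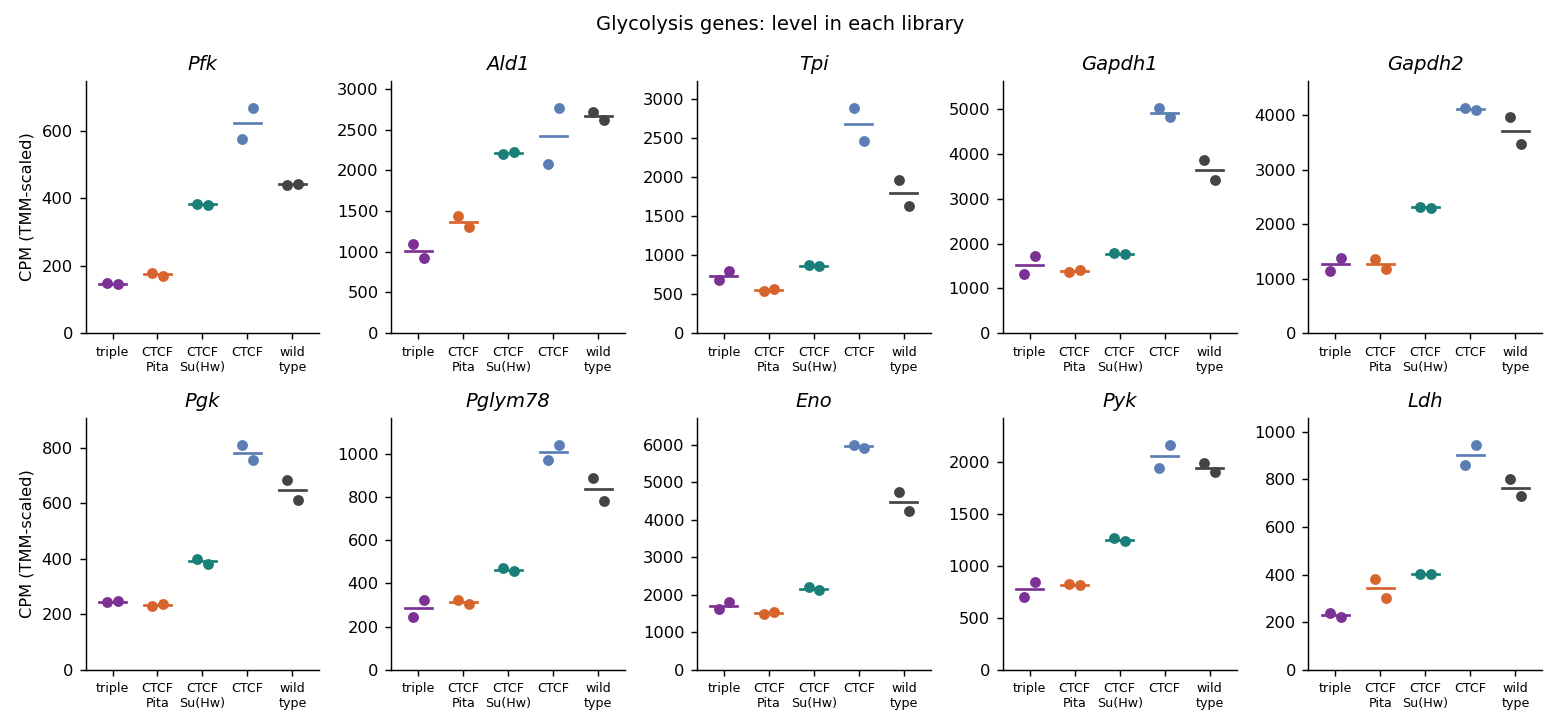
Level of each glycolysis gene in each library, in TMM-scaled CPM on a linear axis from 0, with points for the 2 libraries of a genotype and a line at their mean. For Tpi the CTCF Pita mutant libraries sit at 542 and 565 CPM, below every other library, whereas for Ldh the lowest are the triple mutant libraries at 237 and 220.3 CPM; with library totals in place of TMM factors, the CTCF mutant no longer stands above wild type.

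All 10 genes fell in triple mutants compared with wild type, in the quasi-likelihood test of edgeR with Benjamini-Hochberg adjustment over 10585 genes, and scaling by library totals kept all of them lower and called. Of all genes tested, 10.3% were called lower in this comparison, and 5.39% under library totals. The mean level of the genes lay between 29.9% of wild type for Ldh and 41.6% for Gapdh1. Ldh had a log2 fold change of -1.74 (SE 0.18, adjusted p = 7.58e-05) and Pfk of -1.59 (SE 0.16, adjusted p = 6.36e-05). The median of the 10 genes was -1.40, against 0.0026 over all genes tested. Both triple mutant libraries lay below both wild-type libraries for all 10 genes, a pattern seen in 29.2% of all genes tested.

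All 10 genes also fell in CTCF Pita mutants, where 19.2% of all genes were called lower. Under library totals all kept their direction and 9 were called, where 5.39% of all genes were called lower and 32.2% higher. Ald1 was the exception at -0.48. Tpi fell the most, to 30.9% of wild type (log2 fold change -1.70, SE 0.19, adjusted p = 0.000176), and Ald1 the least, to 51.3% (-0.96, SE 0.20, adjusted p = 0.00446, by edgeR). The median log2 fold change was -1.40, against -0.0014 over all genes tested. Both mutant libraries were below both wild-type libraries for all 10 genes, against 35.6% of all genes. Leaving out any library, or both CTCF Su(Hw) libraries, left 10 genes called in this comparison and in that of the triple mutant.

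In the CTCF Su(Hw) mutant 8 of the 10 genes fell compared with wild type, where 17.4% of all genes were called lower. Under library totals 3 were called, where 4.81% of all genes were called lower and 29.6% higher. On that scale Pfk and Ald1, at -0.21 and -0.27 with TMM, turned to 0.28 and 0.22 without passing. The 3 that were called under both scalings were Tpi (-1.06, SE 0.19, adjusted p = 0.00251), Gapdh1 (-1.04, SE 0.20, adjusted p = 0.00328) and Eno (-1.05, SE 0.18, adjusted p = 0.00233), each with the edgeR value under TMM. The other genes called, Gapdh2, Pgk, Pglym78, Pyk and Ldh, lay between 52.5% of wild type for Ldh and 64.3% for Pyk. Pfk and Ald1 lay at 86.5% and 83.0% of wild type and did not pass the test (adjusted p = 0.315 and 0.316, edgeR). Both CTCF Su(Hw) libraries lay below both wild-type libraries for all 10 genes, against 38.0% of all genes. On library totals Pfk and Ald1 lay above and 8 genes below, but the share of all genes was not counted on that scale. With the CTCF Su(Hw) libraries summed as 1, 4 genes passed, since Gapdh2, Pgk, Pglym78 and Pyk no longer did. Without wild type 1, 4 genes passed, without CTCF Su(Hw) 1 again 4, and without CTCF Su(Hw) 2 there were 3. In an edgeR fit of only these genotypes 9 passed, Ald1 being added at -0.26 (adjusted p = 0.0418). The share of all genes called under these alternatives is not given here, so a general change in calls cannot be told apart.

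None of the 10 genes passed the test in CTCF mutants compared with wild type, where 3.37% of all genes were called in either direction and 2019 genes had an unadjusted p under 0.05. With TMM scaling 9 of the 10 fold changes were positive, with a median of 0.27 against -0.015 over all genes, but under library totals all 10 were negative, with a median of -0.30. Tpi had 0.57 (95% interval 0.16 to 0.99, adjusted p = 0.132) and Pfk 0.50 (0.15 to 0.84, adjusted p = 0.121) by edgeR. DESeq2 called Pfk and Tpi higher, and so did edgeR without triple mutant 1 or without triple mutant 2, in a comparison where edgeR called 2.20% of all genes higher. Both CTCF mutant libraries lay above both wild-type libraries for 8 of the genes, against 25.7% of all genes. On library totals 0 lay above and 7 below, but the share of all genes was not counted on that scale. All 4 comparisons use the same wild-type libraries.

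**Figure D2:**
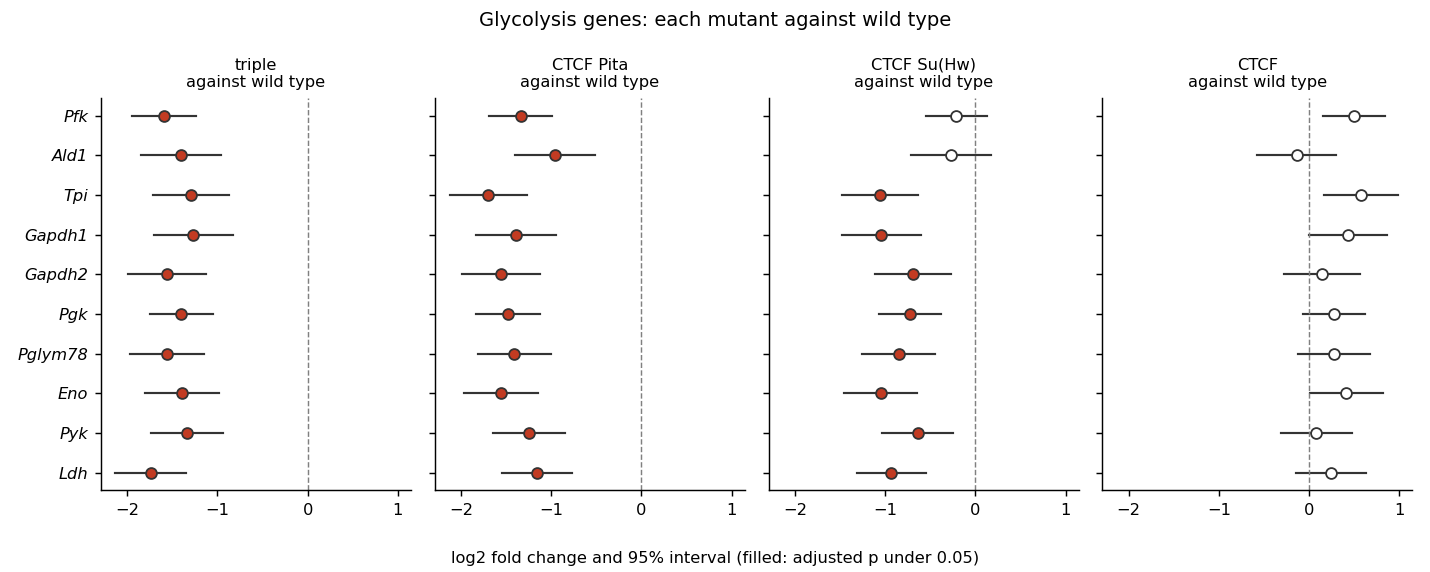
Log2 fold change of each glycolysis gene in each mutant against wild type, with its 95% interval; filled points passed the edgeR test after adjustment and the dashed line marks no difference. All 10 points are filled and negative for the triple and CTCF Pita mutants, 8 for the CTCF Su(Hw) mutant and 0 for the CTCF mutant. Under library totals 10, 9, 3 and 0 genes passed, where 5.39%, 5.39%, 4.81% and 11.5% of all genes were called lower. On that scale Pfk and Ald1 were positive in CTCF Su(Hw) mutants, and all 10 genes were negative in CTCF mutants.

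The choice of scaling set the zero line of these comparisons. Library totals in place of TMM factors put the median log2 fold change of all genes tested at 0.14 in triple mutants, 0.48 in CTCF Pita mutants, 0.48 in CTCF Su(Hw) mutants and -0.59 in CTCF mutants, each against wild type. Relative to that median, the glycolysis genes had median differences of -1.41, -1.39, -0.77 and 0.29 in the same order. With TMM factors these relative medians were -1.40, -1.40, -0.78 and 0.29. A change of factors shifts all genes by nearly the same amount, so this agreement was fixed in advance and is no check of the result.

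With the Pita allele added, all 10 genes were lower in CTCF Pita than in CTCF mutants, where 22.6% of all genes were called lower. Under library totals 7 were called, where 3.62% of all genes were called lower and 65.6% higher. On that scale Pyk and Ldh no longer passed and Ald1 turned to 0.22. Tpi fell most, by 2.27 on the log2 scale (SE 0.20, adjusted p = 3.96e-05), and Ald1 least, by 0.82 (SE 0.20, adjusted p = 0.0075, edgeR). The median was -1.73, against 0.061 over all genes. Both CTCF Pita libraries were below both CTCF libraries for all 10 genes, against 35.0% of all genes. On library totals they were below for 7, but the share of all genes was not counted on that scale. Without CTCF mutant 2, Ald1 did not pass (-0.62, adjusted p = 0.066 by edgeR).

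With the Su(Hw) allele added, 9 of the 10 genes, all but Ald1, were lower in CTCF Su(Hw) than in CTCF mutants. Of all genes 21.4% were called lower there. Under library totals 64.4% of all genes were called higher and 3.58% lower. On that scale only Tpi, Gapdh1 and Eno were called lower, Ald1 was called higher at 0.91, and Pfk, Gapdh2, Pgk and Pyk turned positive. Tpi had -1.63 (SE 0.19, adjusted p = 0.000151), Gapdh1 -1.48 (SE 0.20, adjusted p = 0.000317) and Eno -1.46 (SE 0.19, adjusted p = 0.000225) by edgeR under TMM. Ald1 stood at -0.13 (95% interval -0.57 to 0.31). The same 9 genes had both CTCF Su(Hw) libraries below both CTCF libraries, against 36.6% of all genes. On library totals 3 did while 4 lay above, but the share of all genes was not counted on that scale. With the CTCF Su(Hw) libraries summed, Gapdh2 and Pyk did not pass and 7 genes did, and without CTCF Su(Hw) 2 there were 6.

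Triple and CTCF Su(Hw) mutants differ by the Pita allele, and 7 of the 10 genes were lower in the triple mutant. Of all genes 10.4% were called lower there. Under library totals all 10 were called lower, where 14.5% of all genes were called lower. Pfk had -1.38 (SE 0.16, adjusted p = 0.000243) and Ald1 -1.13 (SE 0.20, adjusted p = 0.00309) by edgeR, the genes that had differed least between the CTCF Su(Hw) mutant and wild type. Tpi, Gapdh1 and Eno did not pass, at -0.23, -0.22 and -0.34. Both triple mutant libraries were below both CTCF Su(Hw) libraries for all 10 genes under either scaling, against 33.8% of all genes under TMM. The share of all genes was not counted under library totals. Only Pfk and Ald1 passed with the CTCF Su(Hw) libraries summed, and the same 2 genes without CTCF Su(Hw) 1 or without CTCF Su(Hw) 2.

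Triple and CTCF Pita mutants differ by the Su(Hw) allele, and here 1 of the 10 genes passed. It was Ldh in the edgeR test, at -0.58 (SE 0.18, adjusted p = 0.0439), where 6.88% of all genes were called lower. Under library totals Ldh was again the only gene of the 10 called, at -0.92, where 8.69% of all genes were called lower. The Ldh call was lost with both CTCF Su(Hw) libraries left out or summed (adjusted p = 0.091 and 0.103), and without any 1 of 8 libraries, that is all but CTCF Pita 2 and triple mutant 1. The other 9 genes lay between -0.44 for Ald1 and 0.41 for Tpi under TMM, with 95% intervals of -0.88 to 0.0004 and -0.0071 to 0.82, and under library totals between -0.77 for Ald1 and 0.037 for Tpi, with Gapdh1, Pgk and Eno turned from positive to -0.26, -0.27 and -0.20. Tpi, Pgk and Eno had both triple mutant libraries above both CTCF Pita libraries, against 29.2% of all genes. Pfk, Ald1 and Ldh had both below, against 29.7%. On library totals 0 lay above and 8 below, but the share of all genes was not counted on that scale. Without triple mutant 1, Tpi was called higher, at 0.53, where 9.87% of all genes were called higher with all libraries.

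The comparisons with the CTCF mutant share its libraries, and both comparisons of the triple mutant with a double mutant share the triple mutant libraries. The Su(Hw) by Pita interaction asks whether the Su(Hw) allele had the same effect, on the log2 scale, on the CTCF Pita background as on the CTCF background. Under TMM 6 of the 10 genes had a positive interaction, against 23.2% of all genes called higher, so that their Su(Hw) fold change was higher with the Pita allele than without it; under library totals Tpi alone was called higher, at 0.59, and Pfk, Ald1, Gapdh2, Pyk and Ldh were called lower, where 3.25% of all genes were called higher and 61.0% lower. Under TMM 22.1% of all genes were called lower. Tpi had the largest value, 2.04 (SE 0.27, adjusted p = 0.000412), made up of 0.41 on the CTCF Pita background and -1.63 on the CTCF background. Eno followed at 1.63 (SE 0.26, adjusted p = 0.000844) and Gapdh1 at 1.60 (SE 0.28, adjusted p = 0.00132). Pgk had 1.08, Pglym78 0.97 and Gapdh2 0.83, with adjusted p between 0.00306 and 0.0277 by edgeR. Pyk at 0.63, Ldh at 0.59, Pfk at 0.45 and Ald1 at -0.31 did not pass. The median interaction of the genes relative to that of all genes was 0.95 under TMM and 0.92 under library totals, which put the all-gene median at -1.45. Here too the agreement follows from the arithmetic of scaling and is no check of the result. The count ran from 4 without CTCF Su(Hw) 2 to 7 without triple mutant 1, triple mutant 2 or CTCF Pita 1, and was 5 with the CTCF Su(Hw) libraries summed, where Gapdh2 did not pass.

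**Figure D3:**
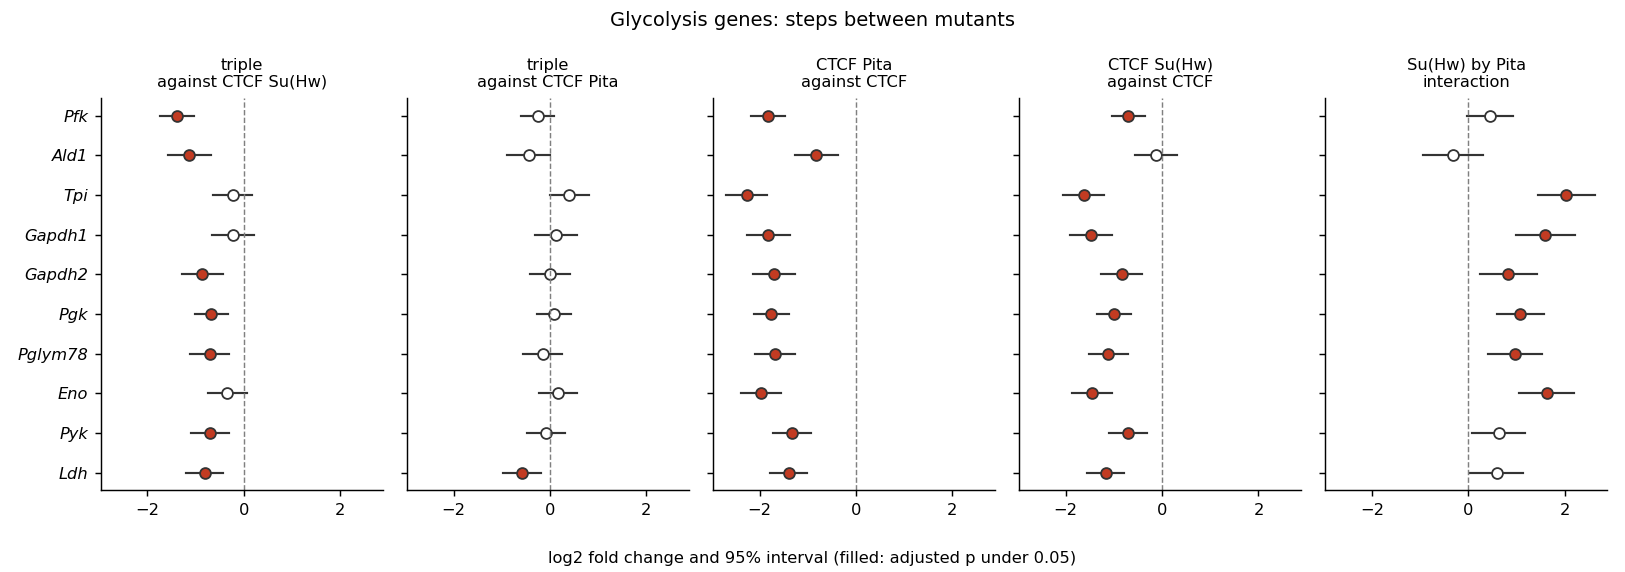
Log2 fold change of each glycolysis gene in the 4 steps between mutants and in the Su(Hw) by Pita interaction, with 95% intervals under TMM scaling; filled points passed the edgeR test after adjustment. Tpi is at -1.63 for the Su(Hw) allele on the CTCF background and at 0.41 on the CTCF Pita background. Its interaction of 2.04 is the farthest to the right. Under library totals that interaction was 0.59, and 5 other genes had negative interactions that passed, where 61.0% of all genes were called lower.

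Ratios between members within a library do not depend on the scaling. The read ratio of Ald1 to Tpi was 1.63 and 1.16 in triple mutants, 2.65 and 2.31 in CTCF Pita mutants, 2.53 and 2.60 in CTCF Su(Hw) mutants, 0.720 and 1.13 in CTCF mutants, and 1.39 and 1.61 in wild type. Both double mutants were above all other libraries, and the triple mutant overlapped wild type. Accordingly Tpi held 9.10% and 9.43% of the reads of the 10 genes in triple mutants, 6.66% to 7.21% in the double mutants, 11.4% and 9.59% in CTCF mutants, and 8.90% and 8.19% in wild type. Ald1 held 14.8% and 10.9% in triple mutants, 16.6% to 18.4% in the double mutants, 8.20% and 10.8% in CTCF mutants, and 12.3% and 13.2% in wild type. With 2 libraries against 2, an exact permutation test of such ratios could not go below p = 0.333, so they are given as a description.

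The order of the Gapdh copies by reads differed between genotypes. The read ratio of Gapdh1 to Gapdh2 was 1.14 and 1.25 in triple mutants, 1.01 and 1.21 in CTCF Pita mutants, 0.768 and 0.768 in CTCF Su(Hw) mutants, 1.22 and 1.18 in CTCF mutants, and 0.975 and 0.988 in wild type. The ratio was below 1 in both libraries of the CTCF Su(Hw) mutant and of wild type, and above 1 in all other libraries. The ratio of Pfk, the committing step, to Eno was 0.174 and 0.178 in CTCF Su(Hw) mutants and 0.0806 to 0.120 in the other 8 libraries. The ratio of Ldh to Pyk, the branch at pyruvate, was 0.340 and 0.259 in triple mutants, 0.465 and 0.371 in CTCF Pita mutants, 0.316 and 0.324 in CTCF Su(Hw) mutants, 0.442 and 0.436 in CTCF mutants, and 0.401 and 0.383 in wild type. It was below both wild-type libraries in the triple and CTCF Su(Hw) mutants and above both in CTCF mutants.

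**Figure D4:**
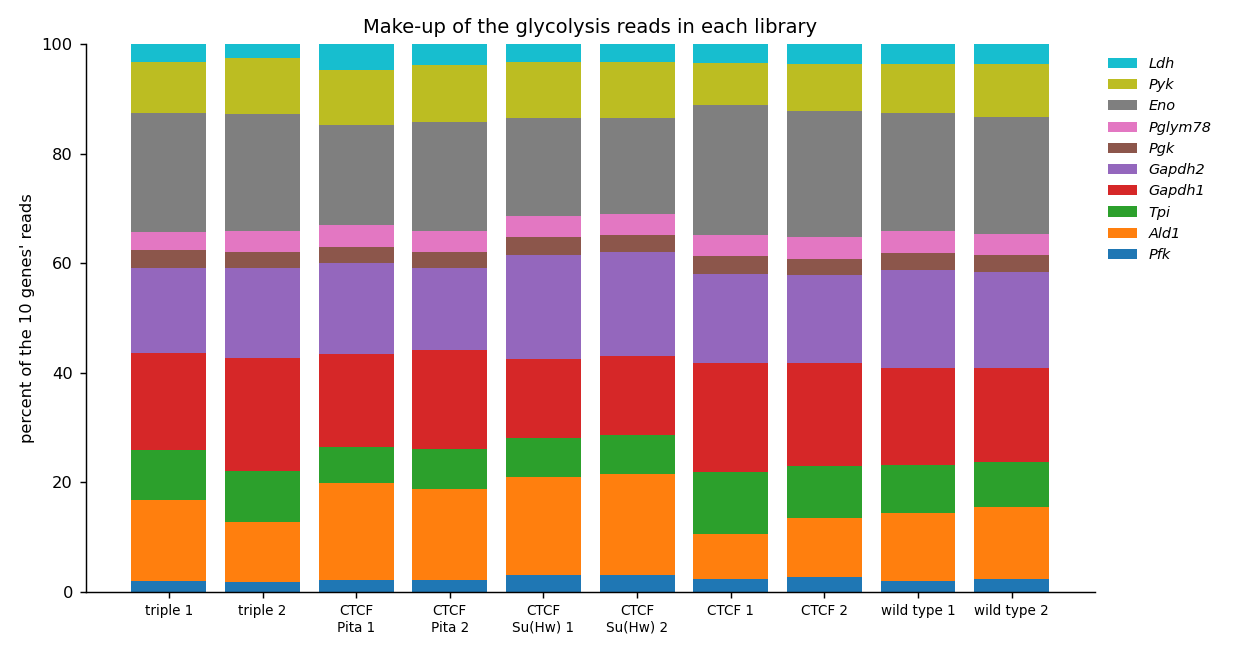
Share of the reads of the 10 glycolysis genes taken by each gene in each library, in percent, a measure that does not depend on scaling between libraries. Ald1 takes 16.6% to 18.4% in the CTCF Pita and CTCF Su(Hw) mutants, against 12.3% and 13.2% in wild type, and Pfk takes 3.11% and 3.13% in CTCF Su(Hw) mutants, the highest of all libraries.

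The profiles over the 10 libraries were closest for Gapdh1 and Eno, with a root-mean-square difference of 0.088 in centred log2 CPM, and farthest for Ald1 and Tpi, at 0.597. Pgk lay nearest to the mean profile of the 10 genes, at 0.074, and Ald1 farthest, at 0.349, which is rank 271 of the 10585 genes tested. The 5 other genes with the most similar profiles, leaving out CG and CR placeholder names, were Argk1 (arginine kinase, 0.129), Peritrophin-A (a chitin-binding protein, 0.138), pyd3 (an enzyme of pyrimidine breakdown, 0.149), ND-75 (a complex I subunit, 0.154) and fon (a clotting protein, 0.163). These distances rest on TMM-scaled values of 10 libraries, and the members themselves entered the mean profile.

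The steps that feed the pathway did not all move with it. Of 6 entry genes 0, 2, 2 and 1 were called higher and 1, 2, 0 and 0 lower in triple, CTCF Pita, CTCF Su(Hw) and CTCF mutants against wild type, where 10.9%, 18.6%, 15.8% and 2.20% of all genes were called higher. The list held Hex-A, Hex-C, Hex-t1, Hex-t2, Pgi and Pfrx, the last a regulator of phosphofructokinase rather than a step. Hex-t2 was near the floor, with 2 and 4 reads in wild type and 14 to 26 in the CTCF Pita and CTCF Su(Hw) mutants. The filter may have kept it only through those mutants. Hex-A, the main hexokinase, had 144 and 90.8 CPM in triple mutants, 163 and 168 in CTCF Pita mutants, 225 and 235 in CTCF Su(Hw) mutants, 67.7 and 92.0 in CTCF mutants, and 98.5 and 83.0 in wild type. It was higher in the CTCF Pita and CTCF Su(Hw) mutants than in wild type, at 0.86 and 1.34 (adjusted p = 0.0117 and 0.00176, edgeR), while the triple mutant at 0.38 did not pass. Summing the CTCF Su(Hw) libraries left that mutant 1 entry gene higher and 0 lower, with Hex-A at 1.33 (adjusted p = 0.0213, edgeR). Hex-A had a negative Su(Hw) by Pita interaction of -2.01 (adjusted p = 0.000791, edgeR), opposite in sign to that of 9 of the glycolysis genes under TMM; under library totals 6 of those 9 were negative too. The Hex-A interaction was -1.99 with the CTCF Su(Hw) libraries summed (adjusted p = 0.00621, edgeR). Pgi, phosphoglucose isomerase, stands between hexokinase and phosphofructokinase and had 281 and 323 CPM in triple mutants, 409 and 365 in CTCF Pita mutants, 543 and 532 in CTCF Su(Hw) mutants, 773 and 839 in CTCF mutants, and 720.4 and 699 in wild type. Pgi fell by 1.23 in triple mutants and by 0.88 in CTCF Pita mutants, and the second of these calls was lost under library totals. Hex-C was higher in CTCF mutants at 1.31 (adjusted p = 0.0451, edgeR), from 42 to 84 reads per library of the groups compared, and under library totals this did not pass.

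Other routes of sugar carbon were counted as lists, given as the number lower and the median log2 fold change for the triple and then the CTCF Pita mutant against wild type, where 10.3% and 19.2% of all genes were called lower. The pentose phosphate pathway, which makes NADPH and ribose, had 5 and 6 of its 6 genes lower, with medians of -1.62 and -1.79. Pgd, its second dehydrogenase, fell by 2.44 and 2.51, and Taldo, transaldolase, by 2.16 and 2.28. Glycerol phosphate shuttle and pyruvate entry genes had 6 and 7 of 8 lower, with medians of -1.37 and -1.16, led by Gpo1 of the shuttle at -2.61 and -2.11. For trehalose and glycogen handling 7 and 6 of 10 were lower, with medians of -0.83 and -0.82, and AGBE, the glycogen branching enzyme, had the largest fall at -2.16 and -1.83. The citric acid cycle had 9 and 11 of 14 lower, with medians of -0.66 and -0.82. None of these lists held a member called higher in those comparisons, and all of these calls are from edgeR under TMM; under library totals 5, 6, 5 and 5 genes of the 4 lists were lower in triple mutants and 5, 5, 2 and 4 in CTCF Pita mutants, where 1 gene of the second list was higher. Under library totals 5.39% of all genes were called lower in each of these comparisons, and 32.2% higher in CTCF Pita mutants.

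In the CTCF Su(Hw) mutant the pentose phosphate list had 5 of 6 lower, the shuttle and pyruvate list 7 of 8 lower and Pdk higher at 0.94, and the citric acid cycle 7 of 14 lower, where 17.4% of all genes were called lower; under library totals 3, 0 and 4 of them were lower, against 4.81% of all genes. After summing of its libraries 5, 1 and 6 were lower, and Pdk was higher at 0.94 (adjusted p = 0.0381, edgeR). Pdk encodes the kinase that switches off pyruvate dehydrogenase. In the CTCF mutant, where none of the 10 glycolysis genes passed, Pgd at -1.11 and Zw at -1.01 of the pentose phosphate pathway and Gpo1 at -0.70 were lower, where 1.17% of all genes were called lower. Among gluconeogenesis genes Pepck2, which makes phosphoenolpyruvate, was higher in the triple, CTCF Pita and CTCF Su(Hw) mutants at 1.51, 0.51 and 1.48. In contrast fbp, which reverses the step of Pfk, was lower in the same mutants at -0.78, -1.15 and -0.70. It was higher in CTCF mutants at 0.71, a call lost under library totals. On library totals fbp had 170 and 160 CPM in CTCF Su(Hw) mutants against 181 and 202 in wild type, a smaller fall than under TMM. PCB of the same list had 255 and 229 CPM under TMM in triple mutants and 241 and 311 in CTCF Pita mutants. It had 447 and 482 in CTCF Su(Hw) mutants, 406 and 432 in CTCF mutants, and 345 and 358 in wild type. With the CTCF Su(Hw) libraries summed, fbp in that mutant did not pass (adjusted p = 0.0612, edgeR) and Pepck2 did, at 1.47. Of 7 regulators 1, 1, 1 and 1 were higher and 1, 2, 2 and 0 lower in triple, CTCF Pita, CTCF Su(Hw) and CTCF mutants. Of all genes 10.9%, 18.6%, 15.8% and 2.20% were called higher in the same order and 10.3%, 19.2%, 17.4% and 1.17% lower, the shares beside which all list counts against wild type stand. Among them sug, a transcription factor of sugar responses, fell in the triple, CTCF Pita and CTCF Su(Hw) mutants by 1.26, 1.44 and 2.46, and with the CTCF Su(Hw) libraries summed that last value was -2.47 and passed too. The 9 paralogs of the members, with at most 61 reads per library, had 0, 8, 3 and 0 genes higher and 0 lower in the same order, and none passed in CTCF Su(Hw) mutants with their libraries summed. Together the paralogs had 6.86 and 7.83 CPM in wild type and 23.6 and 29.9 in CTCF Pita mutants. The filter may thus have kept some of them only through the mutants, which favours calls of higher, so their direction is not read as a result. ERR had 4 to 24 reads per library and passed in none of the comparisons with wild type.

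**Figure D5:**
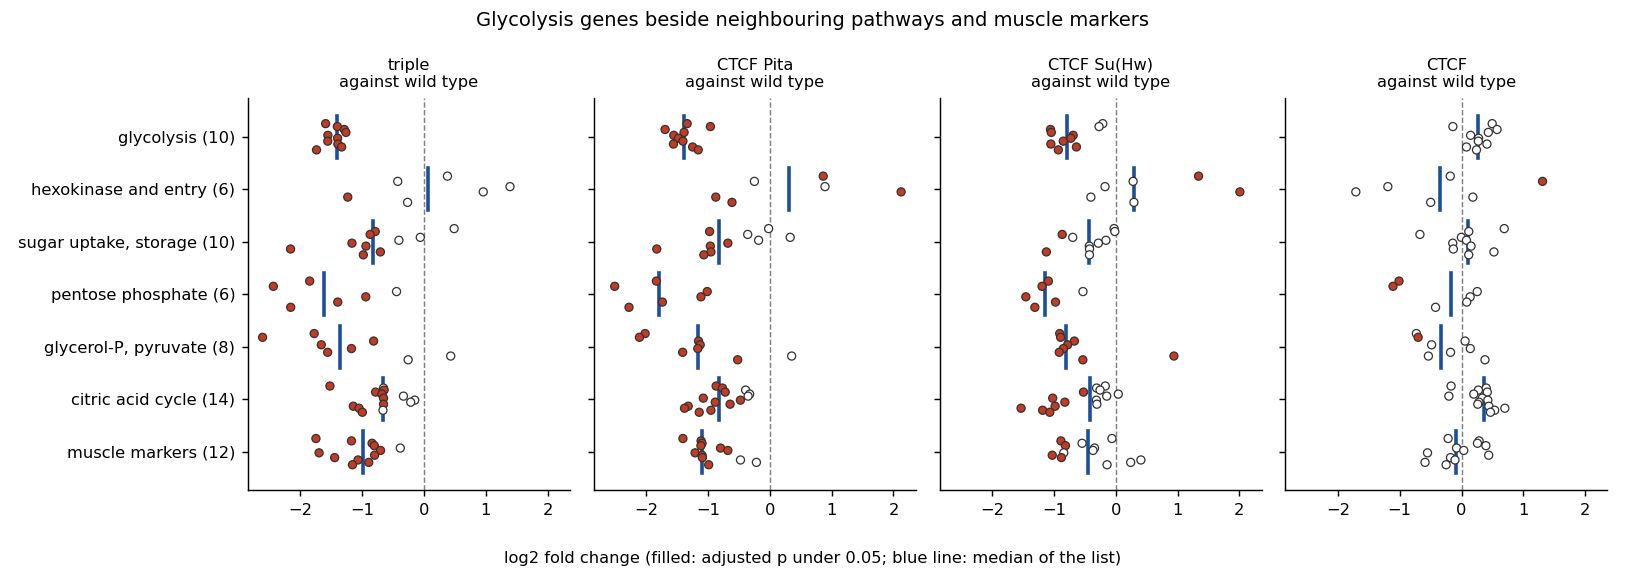
Log2 fold change of the glycolysis genes, of neighbouring pathways and of muscle markers in each mutant against wild type under TMM scaling; a point is a gene, filled points passed the edgeR test after adjustment and the blue line is the median of the list. The glycolysis medians are -1.40, -1.40, -0.79 and 0.27 in the triple, CTCF Pita, CTCF Su(Hw) and CTCF mutants, beside muscle marker medians of -0.98, -1.09, -0.46 and -0.094; under library totals the glycolysis median of the CTCF mutant was -0.30.

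Most muscle markers fell with the glycolysis genes in triple and CTCF Pita mutants, but fewer did in CTCF Su(Hw) mutants. The 12 markers were not alike in that mutant, where 4 were called lower and 0 higher by edgeR under TMM. Mhc had 9354 and 10508 CPM there against 9798 and 10928 in wild type, and bt 3160 and 3518 against 2233 and 2801. In contrast Tm1 had 2161 and 2113 CPM against 4528 and 4181 in wild type. Mlc1 had 2167 and 2111 against 4063 and 3846, and Act57B 12119 and 12363.5 against 21834.2 and 21168.5. Of 12 muscle genes, 11 were lower in triple mutants, 10 in CTCF Pita mutants, 4 in CTCF Su(Hw) mutants and 0 in CTCF mutants, with 0 higher in each, by edgeR under TMM, where 10.3%, 19.2%, 17.4% and 1.17% of all genes were called lower. Under library totals 6, 5, 1 and 1 were lower, against 5.39%, 5.39%, 4.81% and 11.5% of all genes, and 1 was higher in CTCF Su(Hw) mutants. In CTCF Su(Hw) mutants 1 muscle gene was lower with their libraries summed. Their summed level was 35550 and 36550 CPM in triple mutants, 33733 and 35777 in CTCF Pita mutants, 50399 and 52281 in CTCF Su(Hw) mutants, 78105 and 84209 in CTCF mutants, and 74590.1 and 72862 in wild type, and none was at 0 reads in any library. A large part of these sums came from Act57B, with 26451 and 30053 CPM in CTCF mutants and 21834.2 and 21168.5 in wild type. Salivary glue genes, which are switched on late in the last larval stage, had 5, 6, 2 and 1 of 6 higher and 0 lower in triple, CTCF Pita, CTCF Su(Hw) and CTCF mutants, where 10.9%, 18.6%, 15.8% and 2.20% of all genes were called higher. Their medians were 3.30, 4.64, 2.30 and 2.40, and all 6 were positive in every mutant. Their sums were 566 and 2672 CPM in triple mutants, 3110.0 and 2337 in CTCF Pita mutants, 582 and 612 in CTCF Su(Hw) mutants, 1259 and 474 in CTCF mutants, and 247 and 14.4 in wild type, with no glue gene at 0 reads. The fat body list of 6 genes had 1, 1, 1 and 2 higher and 2, 0, 0 and 0 lower in the same order of mutants, and the neuron list of 7 genes had 0, 3, 5 and 0 higher and 0 lower. The gut enzyme list of 8 genes had 3, 3, 0 and 1 higher and 1, 1, 1 and 0 lower. The testis list of 9 genes had 2, 5, 5 and 0 higher and 0, 0, 1 and 0 lower. Together the testis genes had only 24.7 and 27.7 CPM in wild type and 61.5 and 75.0 in CTCF Pita mutants. The filter may thus have kept some of them only through the mutants, so the direction of these calls is not read as a result. The part of muscle content, or of larval stage as read from glue genes, in the glycolysis result was not tested.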

How the data were processed

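The authors deposited 1 table of raw counts per gene for each of 10 libraries, laid out as STAR writes its gene counts. Per the submitters' processing notes, cutadapt and STAR were used with build dm6; versions, annotation release and read filters were not given in the sources used here. Per the labels' protocols, mRNA was selected with oligo(dT) from 50 ng of total RNA and amplified for 12 PCR cycles. The unstranded column was used, since reads of the members fell on each strand about equally. Reads mapping to several places were not counted. Of 17735 identifiers, 17597 had a name in the annotation used here.

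Genes were filtered with filterByExpr of edgeR 4.0.16 (R 4.3.3), which left 10585, scaled with TMM factors and compared by the quasi-likelihood F-test in 1 fit of all 10 libraries, two-sided, over 9 comparisons. P-values were adjusted by Benjamini-Hochberg within each comparison over all genes tested and called at 0.05. The fit had 5 residual degrees of freedom and a median prior of 6.22. The procedure was tested on simulated data. RPKM was computed from the counts and the merged exon length of the annotation. Alternatives were RLE factors, library totals, no filter, a minimum of 10 reads in every library, DESeq2 1.42.0, fits of only the genotypes compared, a replicate block, leaving out mitochondrial genes or each library, and summing the CTCF Su(Hw) libraries. Leaving out both of those was added after seeing the data. The members, gene lists and tests were chosen with earlier results of these data known. All members were described, and of other lists up to 4 called genes with the largest change per comparison could be named, plus Hex-A, Hex-C, Pgi and ERR. Tkt and Fum1 of the lists were not matched and are not used here, and Pepck1 had too few reads to test.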

Additional observations from a re-analysis of the deposited data

Results flagged for a closer look

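The Su(Hw) effect differed between the CTCF Pita and the CTCF background, by the interaction test of edgeR under TMM scaling, for Tpi (2.04), Eno (1.63), Gapdh1 (1.60), Pgk (1.08), Pglym78 (0.97) and Gapdh2 (0.83), in log2 units. Hex-A differed in the opposite direction (-2.01). Under library totals Tpi remained higher at 0.59, Eno at 0.20 (adjusted p = 0.453) and Gapdh1 at 0.15 (adjusted p = 0.539) no longer passed, and Gapdh2, Pgk and Pglym78 changed sign. With the CTCF Su(Hw) libraries summed Gapdh2 did not pass (adjusted p = 0.0888).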

How the results depend on the processing

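Over 90 member results, each a gene in a comparison, 1760 values were computed under the alternatives. Of these 1624 kept their direction and side of the threshold, 77 kept the direction and lost the call, 16 gained a call and 43 changed sign. All 10 member calls in the triple mutant against wild type held under every alternative run.

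Library totals in place of TMM factors changed most. In the CTCF mutant against wild type they gave Pfk -0.069, Tpi -0.0085, Gapdh1 -0.14, Gapdh2 -0.43, Pgk -0.30, Pglym78 -0.29, Eno -0.16, Pyk -0.49, Ldh -0.32 and Pgi -0.39, with a member median of -0.30. In CTCF Su(Hw) mutants against wild type they gave Pfk 0.28, Ald1 0.22 and Pgi 0.085 and 3 calls, and in the CTCF Pita mutant Hex-C 0.23. For CTCF Su(Hw) against CTCF they gave Pfk 0.34, Ald1 0.91, Gapdh2 0.23, Pgk 0.067 and Pyk 0.34, with a median of 0.0019. They gave 4 calls there, where 64.4% of all genes were called higher. For CTCF Pita against CTCF they gave Ald1 0.22. For the triple against CTCF Pita they gave Gapdh1 -0.26, Pgk -0.27 and Eno -0.20. The interaction became Pfk -0.95, Gapdh2 -0.60, Pgk -0.34, Pglym78 -0.47, Pyk -0.79, Ldh -0.80 and Pgi -1.19, with a median of -0.53 and 6 calls, 5 of them lower. These shifts follow the all-gene medians given in the results, since only the factors differ.

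Of the counts of called members, that of the CTCF mutant against wild type was 2 with DESeq2. With the CTCF Su(Hw) libraries summed it was 4 for that mutant against wild type, 2 for the triple against the CTCF Su(Hw) mutant and 0 for the triple against the CTCF Pita mutant. That last count was 0 as well with no filter, with only the genotypes compared, with the replicate block and with both CTCF Su(Hw) libraries left out. Same-numbered libraries did not deviate together, with correlations of -0.149 to 0.153 between genotypes, so the number marks no pairing known from the labels, and the replicate block changed no other count.

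Leaving out each library in turn gave 10 calls throughout for the triple and for the CTCF Pita mutant against wild type, 3 to 8 for the CTCF Su(Hw) mutant and 0 to 2 for the CTCF mutant. It gave 6 to 9 for CTCF Su(Hw) against CTCF, 9 to 10 for CTCF Pita against CTCF, 0 to 2 for the triple against CTCF Pita, 2 to 7 for the triple against CTCF Su(Hw) and 4 to 7 for the interaction. A lone library was assumed to vary like the other groups. Shares of all genes called are not given for these repeats, nor for the summed libraries. A loss or gain of calls particular to these genes therefore cannot be told from a general one. Over these repeats some values crossed 0. In CTCF mutants against wild type Ald1 ran from -0.37 (without CTCF 2) to 0.070 (without CTCF 1), Pyk from -0.0085 (without CTCF 2) to 0.17 and Hex-A up to 0.037 (without CTCF 1). For CTCF Su(Hw) against CTCF, Ald1 ran from -0.36 (without CTCF 1) to 0.078 (without CTCF 2). ERR ran from -1.37 to 0.14 in CTCF Su(Hw) mutants and from -0.83 to 0.66 in triple mutants, each highest without wild type 1. In triple mutants Hex-A ran from -0.000696 (without triple 1) to 0.67 and Hex-C from -0.96 to 0.096 (without triple 1). The median of the triple against CTCF Pita ran from -0.18 (without triple 2) to 0.082 (without triple 1), and was 0.00027 without CTCF Pita 1. There Gapdh1 ran from -0.079 to 0.32, Gapdh2 from -0.13 to 0.15, Pglym78 from -0.35 to 0.048 and Pyk from -0.22 to 0.065, each lowest without triple 2 and highest without triple 1. Gapdh2, near 0 in that comparison, was 0.031 with no filter, 0.0023 with the replicate block and 0.014 with the CTCF Su(Hw) libraries summed. The causes were not tested. With 2 libraries per genotype, small differences in CTCF mutants are beyond what this design resolves.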
